A study of Mus musculus with 6 samples.

Results

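The annotated long non-coding RNAs (lncRNAs) with a signal above the low range were examined in mouse hearts after myocardial infarction (MI). A lncRNA probe set was included when its single gene symbol had the class lncRNA in the RefSeq annotation and its mean log2 signal over the 6 arrays was at least 5. These criteria gave 417 probe sets of 397 lncRNAs, out of 3278 lncRNA probe sets and 65956 transcript probe sets on the array. The probe sets were thus chosen by their mean signal over both groups together, which is given below as a description. A further 5 well-known lncRNAs that met the limit, namely Mhrt, Neat1, Malat1, Kcnq1ot1 and Mir1a-1hg, were left out by name, and 2 of these 5 were called by the test used here.

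The MI group held 3 samples of peri-infarct tissue, taken from male C57BL/6 mice 4 weeks after ligation of the left anterior descending coronary artery. The sham group held 3 samples of the corresponding region from male C57BL/6 mice 4 weeks after a sham operation. Total RNA of each sample was hybridized to 1 Affymetrix mouse transcriptome array 1.0, a 1-colour array. Whether each sample came from a separate heart is not stated, so the p-values measure only the spread between these samples.

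lncRNAs are transcripts with no long open reading frame. Some act on the gene beside them, some hold proteins together or take up microRNAs, and some serve mainly as precursors of small nucleolar RNAs or microRNAs. In the heart, members of this class take part in the commitment of cardiac cells, in the growth of cardiomyocytes and in the matrix production of fibroblasts, but most annotated lncRNAs have no assigned role. This holds for the lncRNAs here, of which 181 carried a RIKEN clone name, 160 a predicted gene name (Gm) and 11 the name of a coding gene followed by os, for opposite strand. The other 45 had names of their own. A curated RefSeq transcript existed for 302 of the 397. The gene span had a median of 7945 bases, and the shortest, 154 bases, was that of Bc1, a small cytoplasmic RNA.

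The promoters of 5 lncRNAs are shown. The first 3 are the lncRNAs called at least 2-fold lower in MI, Gm5563 was also called lower and is shown because it lies opposite the cardiac transcription factor gene Tbx5, and B230216N24Rik was the highest of the lncRNAs called higher. Each window runs 5′ to 3′ from 250 bases before to 50 bases after the RefSeq start in GRCm38.p6. They lie at chr19:5406565-5406864 (plus strand), chr9:101341944-101342243 (plus strand), chr16:42912021-42912320 (minus strand), chr5:119831937-119832236 (minus strand) and chr1:98047744-98048043 (minus strand), in the order printed. Capitals mark the motifs found, searched on both strands. The motifs searched were the TATA box (TATAAA), the box bound by NF-Y (CCAAT), the sites of GATA factors (AGATAA) and of TEAD factors (CATTCC), the AP-1 core (TGANTCA), the ETS site (CCGGAAG) and the MEF2 motif by name. TGANTCA reads the same on both strands and was counted as 1 place.
4930481A15Rik: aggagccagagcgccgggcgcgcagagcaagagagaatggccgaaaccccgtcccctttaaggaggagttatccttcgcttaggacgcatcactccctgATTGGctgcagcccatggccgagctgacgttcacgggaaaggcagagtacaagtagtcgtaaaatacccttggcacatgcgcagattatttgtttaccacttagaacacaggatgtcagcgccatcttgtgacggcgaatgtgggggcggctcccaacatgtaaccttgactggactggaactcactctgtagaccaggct
Gm28979: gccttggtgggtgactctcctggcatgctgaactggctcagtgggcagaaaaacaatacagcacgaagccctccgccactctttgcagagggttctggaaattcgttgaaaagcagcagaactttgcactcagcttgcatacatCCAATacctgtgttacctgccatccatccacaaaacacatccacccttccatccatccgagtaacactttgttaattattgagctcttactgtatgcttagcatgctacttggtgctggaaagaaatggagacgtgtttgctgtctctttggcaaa
Gm19522: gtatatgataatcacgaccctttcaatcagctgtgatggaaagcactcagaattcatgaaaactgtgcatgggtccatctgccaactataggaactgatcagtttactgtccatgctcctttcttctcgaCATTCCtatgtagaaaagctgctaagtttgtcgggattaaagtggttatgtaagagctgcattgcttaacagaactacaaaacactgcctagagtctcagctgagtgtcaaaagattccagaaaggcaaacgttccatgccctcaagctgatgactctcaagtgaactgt
Gm5563: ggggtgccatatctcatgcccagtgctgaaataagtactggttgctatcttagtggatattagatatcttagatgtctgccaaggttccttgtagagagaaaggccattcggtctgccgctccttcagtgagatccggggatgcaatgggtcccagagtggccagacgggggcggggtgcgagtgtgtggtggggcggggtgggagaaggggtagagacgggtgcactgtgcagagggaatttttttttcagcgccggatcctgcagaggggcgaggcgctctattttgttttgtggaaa
B230216N24Rik: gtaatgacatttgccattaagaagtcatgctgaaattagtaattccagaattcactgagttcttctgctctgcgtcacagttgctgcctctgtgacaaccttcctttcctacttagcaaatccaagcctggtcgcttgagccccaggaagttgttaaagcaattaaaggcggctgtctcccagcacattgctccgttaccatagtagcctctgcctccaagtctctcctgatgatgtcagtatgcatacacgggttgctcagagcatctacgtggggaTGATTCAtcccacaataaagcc

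The promoter of 4930481A15Rik held a CCAAT box on the minus strand at position -151 from the start and 17 CpG dinucleotides, against a median of 7 over all promoters in the RefSeq table. The promoter of Gm28979 held a CCAAT box at -106 and 5 CpGs, and that of Gm19522 held CATTCC, the core of TEAD sites, at -120 and 4 CpGs. The promoter of Gm5563, for which the table gave 2 starts, held 12 CpGs and no match to the motifs searched. The promoter of B230216N24Rik held TGANTCA, the AP-1 core, at position 29 after the start. A CCAAT box occurred in 37.4% of all 32851 promoters, CATTCC in 14.7% and TGANTCA in 7.81%. The windows of the lncRNAs, 360 in all for 307 lncRNAs, held these motifs in 35.8%, 15.6% and 7.22%. No motif was shared by the 3 lncRNAs with the largest fall, and a match is a description of the letters only.

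The log2 signals reported here were made by the authors by robust multi-array averaging with quantile normalization of the probes, and fold changes are the MI mean minus the sham mean on that scale. A probe set was called when the limma test gave a Benjamini-Hochberg adjusted p under 0.05 over the 32979 probe sets tested. All 417 lncRNA probe sets passed the low-signal limit of that test, a mean of 4.36. The array carried 23 background controls, and the highest of these read 5.12 to 6.08 per array, while their medians were 2.69 to 2.96. On all 6 arrays 150 lncRNA probe sets lay above the highest control, 55 lay below it, and 212 lay above it on some arrays only. None of the 55 was called. Just inside the limit of 5 were 1700003D09Rik, Gm3625 and 4833418N02Rik, each with a mean of 5.01, and just outside were Smkr-ps, D330041H03Rik and 6030443J06Rik, each with a mean of 4.99.

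The 397 lncRNAs were not all measured independently. The 417 probe sets gave 408 distinct value profiles, and 13 probe sets had the same values as another. Orly, on chromosome Y, accounted for 14 probe sets with 6 distinct profiles, and Gm7969 for 3 probe sets. Counting each lncRNA by 1 probe set left the calls at 6 higher and 25 lower.

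The lncRNAs were more often down-regulated than up-regulated in MI. Of the 417 probe sets, 25 were called lower (6.00%) and 6 were called higher (1.44%). Among all probe sets tested, 3.64% were called lower and 2.97% were called higher. Among the 12206 protein-coding probe sets the shares were 6.26% lower and 4.26% higher, so the share of lncRNAs called lower was close to that of coding genes. The median log2 fold change was -0.05 over the lncRNAs, -0.05 over the coding probe sets and 0.01 over all probe sets tested. Centring each array on its median, a different scaling, gave 3 lncRNA probe sets higher and 33 lower.

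The direction was also visible without the test. All 3 MI arrays lay below all 3 sham arrays for 100 lncRNA probe sets (24%), against 16.8% of all probe sets tested and 26.7% of the coding probe sets. All 3 MI arrays lay above all 3 sham arrays for 46 (11%), against 15.0% of all probe sets tested and 16.2% of the coding probe sets. The groups overlapped for the other 271. At an unadjusted p under 0.05 in limma there were 111 of the 417 lncRNA probe sets. The same limit was reached by 8150 of all 32979 probe sets tested and by 3969 of the 12206 coding probe sets. An adjusted p under 0.1 in limma was reached by 61 lncRNA probe sets, of which 46 were lower and 15 higher in MI. No share over all probe sets is given for that limit.

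These counts depended on which arrays entered the fit. None of the 31 calls remained at the threshold when MI 1, MI 2, sham 2 or sham 3 was left out, and 5 remained without sham 1. Without MI 3 there were 16 higher and 59 lower. Over all probe sets tested, calls fell to 0 without MI 1, sham 2 or sham 3, to 61 without MI 2 and to 327 without sham 1. They rose to 4687 without MI 3, against 980 higher and 1200 lower on all 6 arrays. All 31 called lncRNAs kept the sign of their fold change whichever array was left out. Because their groups did not overlap, leaving out 1 array could not turn the sign, so this adds no support. The MI 3 array was the nearest to sham, with a median difference from the sham mean of -0.60 over the lncRNAs called lower, against -0.76 in both MI 1 and MI 2. It had the highest MI value in 17 of these 25 and the lowest MI value in 4 of the 6 called higher.

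**Figure D1:**
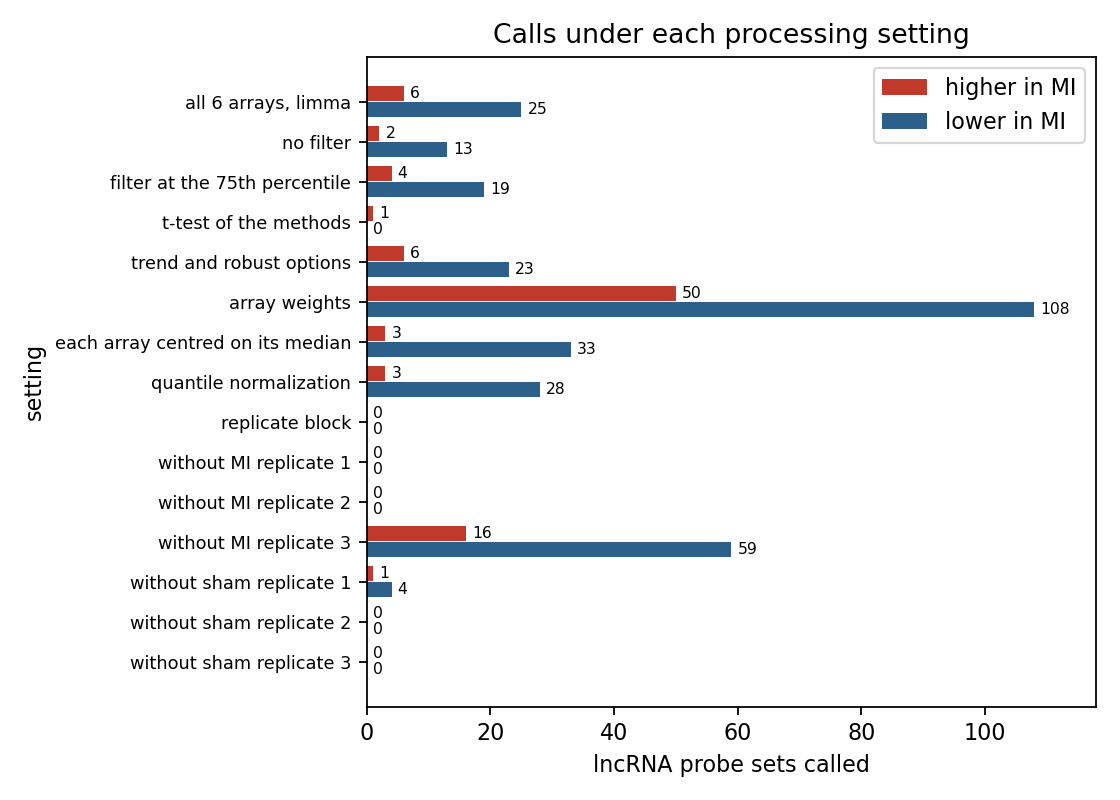
Number of lncRNA probe sets called higher (red) and lower (blue) in MI under each processing setting (rows), with the number beside each bar. All 6 arrays gave 6 higher and 25 lower, and the counts ran between 0 and 16 higher and between 0 and 59 lower when 1 array was left out. Over all probe sets tested, 0 to 4687 were called when 1 array was left out.

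The down-regulated lncRNAs lay mostly at mean signals of 6 to 8, above the median of 5.76 over the lncRNA probe sets. Of 131 lncRNA probe sets with a mean of 6 to 8, 17 were called lower (13%) and 3 higher (2.29%). At the same signal 4.54% of all probe sets tested were lower and 3.92% higher, and 5.59% and 4.89% of coding probe sets. The median log2 fold change of these 131 was -0.22, against -0.03 for all tested probe sets in that range. Between 5 and 6 there were 241 lncRNA probe sets, with 5 lower and 1 higher and a median of 0.00. These shares were 2.07% lower and 0.415% higher, against 1.73% and 2.87% of all probe sets tested there. Between 8 and 10 there were 26, with 1 lower (3.85%) and 2 higher (7.69%), against 6.66% and 3.90% of all probe sets tested there. Above 10 there were 19, with 2 lower (10.5%) and none higher. In that range 6.71% of all tested and 14.2% of coding probe sets were lower, and 3.23% of all tested were higher. Among the 443 tested lncRNA probe sets with a mean under 5, 5 were lower (1.13%) and none higher. Over all probe sets tested, at any signal, 3.64% were lower and 2.97% higher.

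**Figure D2:**
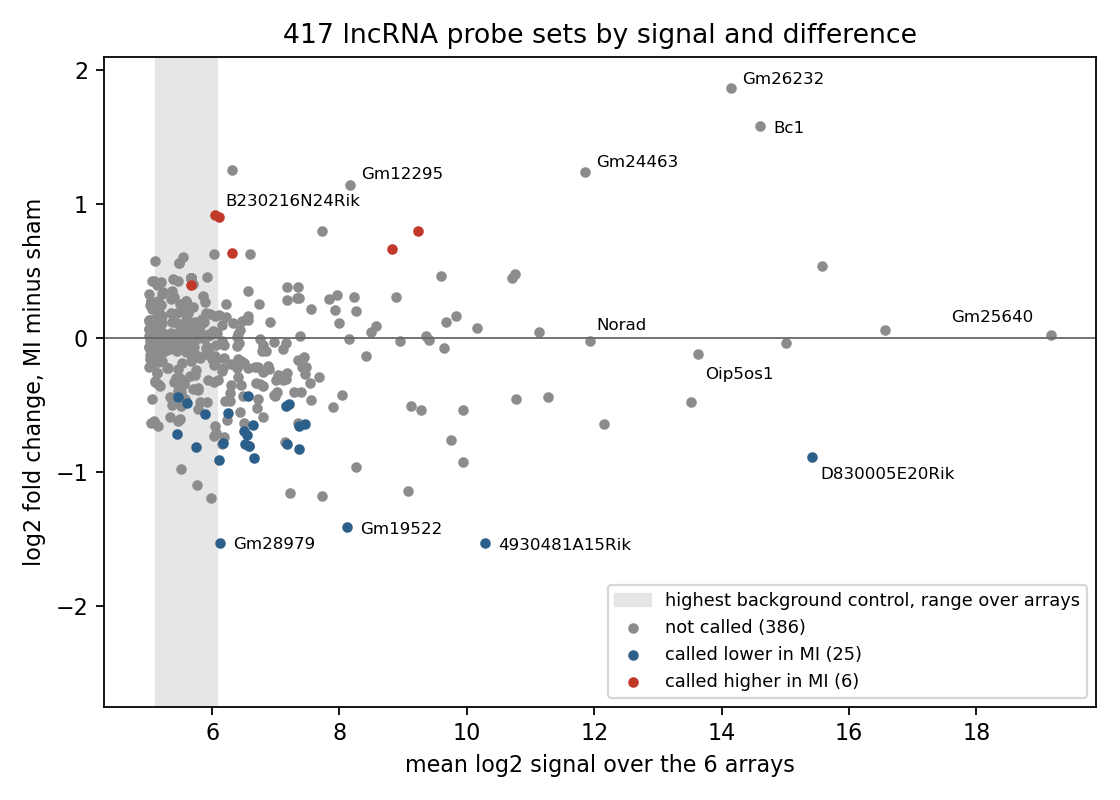
Mean log2 signal over the 6 arrays (horizontal) against the log2 fold change, MI minus sham (vertical), of the 417 lncRNA probe sets, with those called lower in blue and higher in red. The grey band spans the highest background control of each array, 5.12 to 6.08, and most calls lower gather between 5.4 and 8, with Gm19522, 4930481A15Rik and D830005E20Rik at higher signals, while Bc1 and Gm26232 at the upper right were not called.

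Only 3 of the lncRNAs were called at least 2-fold lower, and none was called at least 2-fold higher. Among all 32979 probe sets tested 288 (0.873%) were called at least 2-fold lower and 473 at least 2-fold higher. Among the 12206 coding probe sets these counts were 146 and 268. The first, 4930481A15Rik on chromosome 19, read 9.37, 9.40 and 9.79 in MI, against 10.98, 11.28 and 10.89 in sham. Every MI value lay more than 1 below every sham value, and the log2 fold change was -1.53 (SE 0.165, limma adjusted p = 0.0142). Gm28979 on chromosome 9 read 5.37, 5.39 and 5.33 in MI, against 6.46, 7.04 and 7.17 in sham. Its MI values lay within the range of the highest background controls, so its log2 fold change of -1.53 (SE 0.192, limma adjusted p = 0.0179) is measured from a signal near background in MI. Gm19522 on chromosome 16 read 7.32, 7.20 and 7.71 in MI, against 8.81, 8.87 and 8.78 in sham. Its groups were more than 1 apart, with a log2 fold change of -1.41 (SE 0.147, limma adjusted p = 0.0140).

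The down-regulated lncRNA with the highest log2 signal was D830005E20Rik, which lies on the opposite strand of Trdn, the gene of triadin, a protein of the calcium release complex of the sarcoplasmic reticulum. It read 14.88, 14.77 and 15.26 in MI, against 16.04, 15.74 and 15.79 in sham, with no overlap (log2 fold change -0.89, SE 0.162, limma adjusted p = 0.0343). Trdn itself read 12.78, 12.39 and 13.28 in MI, against 13.19, 13.09 and 13.18 in sham. Its groups overlapped through MI 3, and its adjusted p was 0.399. Signals of different probe sets depend on their probes and are not set against each other as amounts of RNA.

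Another 8 lncRNAs among the 12 lowest that were called differed by 0.78 to 0.91 on the log2 scale, all lower in MI. Gm16316, opposite the protein kinase A inhibitor gene Pkig, had a log2 fold change of -0.91 and an adjusted p of 0.0430 in limma. 4930480K23Rik read 6.21, 6.08 and 6.35 in MI, against 7.10, 7.28 and 6.94 in sham, with a log2 fold change of -0.89 and a limma adjusted p of 0.0219. It starts head to head with Chmp7, a gene of the membrane-remodelling ESCRT machinery. Gm5113 had a log2 fold change of -0.83, Gm19461 of -0.81, 1700012D14Rik of -0.81, Gm20619 of -0.79, Gm5563 of -0.79 and Gm32352 of -0.78. The MI and sham arrays did not overlap in any of these 8.

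The other 13 lncRNAs called lower were named after their values were seen. They had log2 fold changes from -0.72 for 2310020H05Rik to -0.43 for 9230114K14Rik. The remaining 11 were Gm15991, Gm16793, E330033B04Rik, B230110C06Rik, E330011O21Rik, A630072M18Rik, C920021L13Rik, A430046D13Rik, Gm20544, D830013O20Rik and 9330158H04Rik. The last of these starts head to head with Chrm2, the muscarinic receptor through which the vagus slows the heart. 9330158H04Rik read 5.23, 5.15 and 5.34 in MI, against 5.63, 5.73 and 5.68 in sham, all within or below the range of the highest background controls. B230110C06Rik had the highest adjusted p of the calls, 0.0498 in limma.

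The 6 up-regulated lncRNAs differed by less than 1 on the log2 scale. B230216N24Rik on chromosome 1 read 6.49, 6.65 and 6.35 in MI, against 5.56, 5.54 and 5.65 in sham. All MI values lay clear of the sham values, and the log2 fold change was 0.92 (SE 0.108, limma adjusted p = 0.0159). Each sham value was below the highest background control of its array (5.65, 5.93 and 5.73). E030003E18Rik on chromosome 19 read 6.53, 6.75 and 6.39 in MI, against 5.95, 5.32 and 5.70 in sham (log2 fold change 0.90, SE 0.187, limma adjusted p = 0.0458). Hectd2os, transcribed opposite the ubiquitin ligase gene Hectd2, read 9.72, 9.58 and 9.58 in MI, against 9.17, 8.64 and 8.69 in sham. The gap between its groups was set by sham 1, and its log2 fold change was 0.80 (SE 0.162, limma adjusted p = 0.0440).

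Phxr4 read 9.27, 9.24 and 8.95 in MI, against 8.43, 8.59 and 8.45 in sham, a log2 fold change of 0.66. Gm13601, opposite Xirp2, read 6.77, 6.39 and 6.72 in MI, against 5.96, 6.07 and 5.95 in sham, a log2 fold change of 0.64. Gm13601 was also the lncRNA that lost its call when MI 3 was left out. AI662270 on chromosome 11 had the smallest difference of all calls, with 5.84, 5.88 and 5.89 in MI, against 5.53, 5.43 and 5.45 in sham (log2 fold change 0.40, limma adjusted p = 0.0447). Its MI values lay tightly together and above all sham values, but the MI 3 value was below the highest background control of that array, 6.08. In 2 of the 6 lncRNAs, B230216N24Rik and AI662270, all sham values were at or below the highest background control of their array.

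**Figure D3:**
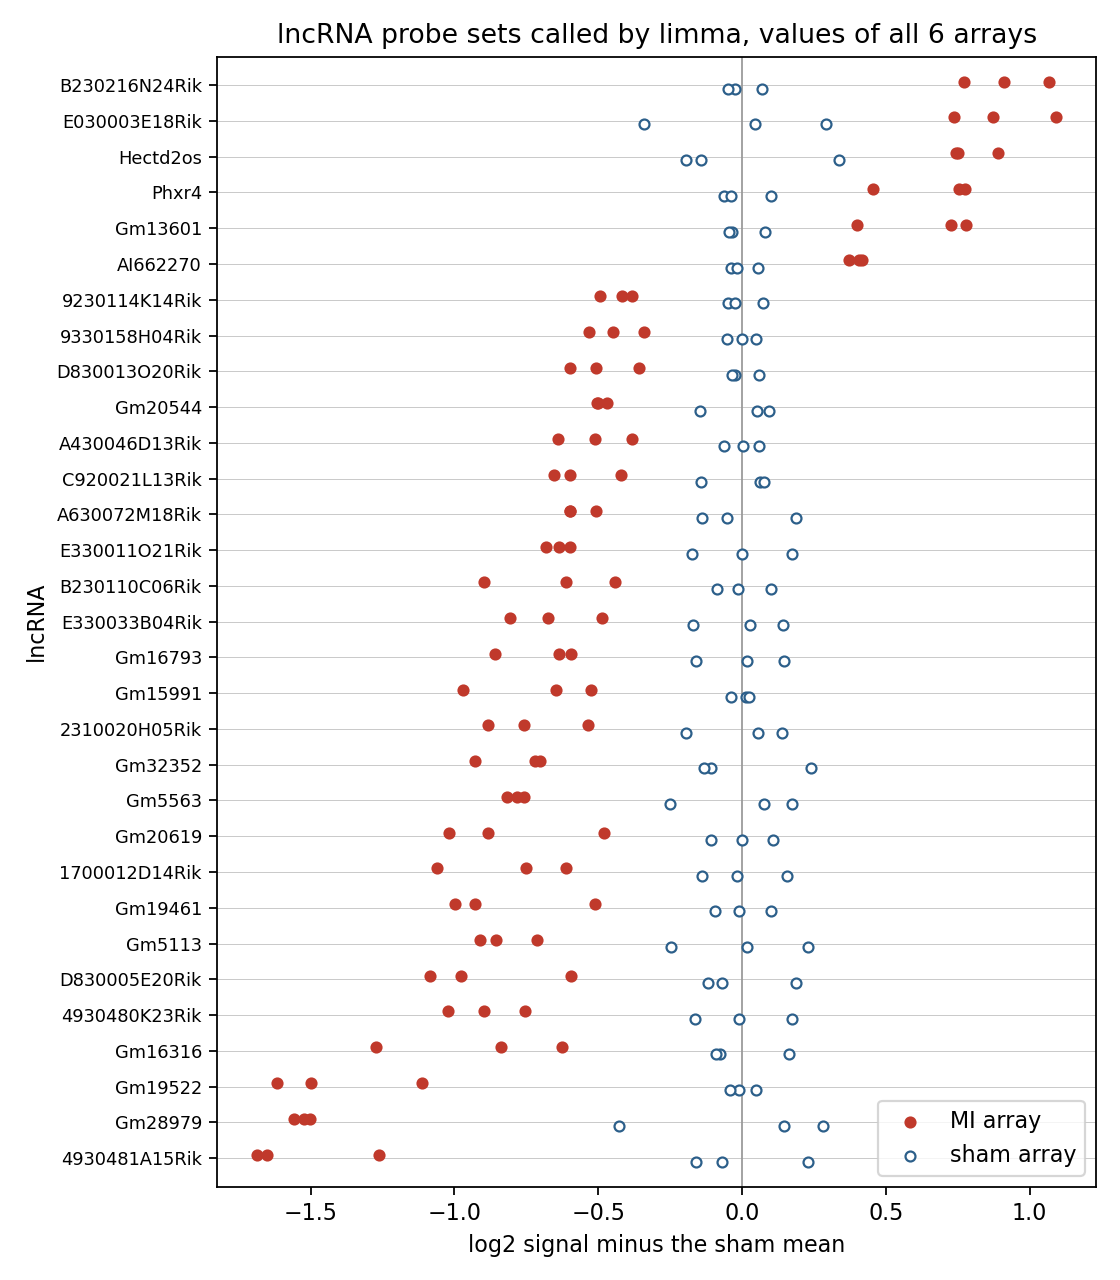
Values of the 31 lncRNA probe sets called by limma on all 6 arrays, as the log2 signal minus the sham mean of that probe set (horizontal), with MI arrays as filled red points and sham arrays as open blue points. The groups do not overlap in any row, and the lowest rows, 4930481A15Rik, Gm28979 and Gm19522, lie more than 1 below sham in every MI array.

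Some markers of cell types differed between the groups. Of 6 fibroblast markers measured 5 were called higher in MI (Col1a1, Col1a2, Col3a1, Dcn and Postn), with a mean log2 signal over the 6 of 12.3 to 13.4 in MI, against 9.42 to 9.90 in sham. Of 6 macrophage markers 2 were called higher, with means of 8.50 to 9.21 in MI, against 7.83 to 8.30 in sham. None of 8 cardiomyocyte markers was called, and their means were 17.1 to 17.4 in MI, against 17.6 in all sham arrays. These means lie above 16, more than a 16-bit scan can hold on the log2 scale, and whether these signals were saturated was not tested. None of 5 endothelial markers was called. Of the lymphocyte and erythroid lists 1 marker each passed the low-signal limit and was tested, and neither was called, while no adipocyte or nerve marker was tested. The means of the lymphocyte list were 4.25 to 4.45 in MI, against 4.04 to 4.14 in sham, and those of the erythroid list 8.11 to 8.30 in MI, against 7.78 to 8.66 in sham. The 4 atrial markers had means of 4.50 to 4.56 in MI, against 4.53, 7.72 and 6.31 in sham, so 2 sham arrays read higher in atrial genes. The part of these cell types in the lncRNA differences was not tested, and in bulk tissue fewer cells of a type and less RNA per cell cannot be told apart.

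The lncRNAs were then set beside the coding genes around them, since some lncRNAs act on their neighbours. By the RefSeq positions, each lncRNA was counted once, under the first relation it met in the order given here. Of these lncRNAs, 101 started head to head with a coding gene within 1000 bases, some of which also overlapped one on the opposite strand. A further 104 overlapped one on the opposite strand, and 27 more on the same strand. For another 13 with an overlap the strand was not known. No coding gene met these criteria for 152. Calls lower fell on 10 of the 104 opposite-strand lncRNAs, 6 of the 101 head-to-head lncRNAs, 3 of the 13 of unknown strand and 6 of the 152 with no such neighbour. None of the 27 same-strand lncRNAs was called lower. Calls higher fell on 3 of these 27, on 2 of the 104 opposite-strand lncRNAs and on 1 of the 152 with no such neighbour. Over all 397 lncRNAs 6.30% were called lower and 1.51% higher, against 3.64% and 2.97% of all probe sets tested. Differences between these classes were not tested.

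In 223 pairs of a lncRNA and a coding gene both had been tested. The coding gene was called in 31 pairs, 11 higher and 20 lower in MI, and the lncRNA had the same sign of fold change in 25 of these 31. Over all 223 pairs the sign was the same in 142 (63.7%). The coding gene was called in 13.9% of the pairs, against 10.5% of all coding probe sets tested. Both were called in 8 pairs, in the same direction in all 8. The coding gene alone was called in 23 pairs and the lncRNA alone in 14. Across pairs the Pearson correlation of the 2 fold changes was 0.73 for 26 same-strand pairs, 0.40 for 103 opposite-strand pairs and 0.19 for 90 head-to-head pairs. These are descriptions across genes, which share the 6 arrays and are not independent replicates.

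**Figure D4:**
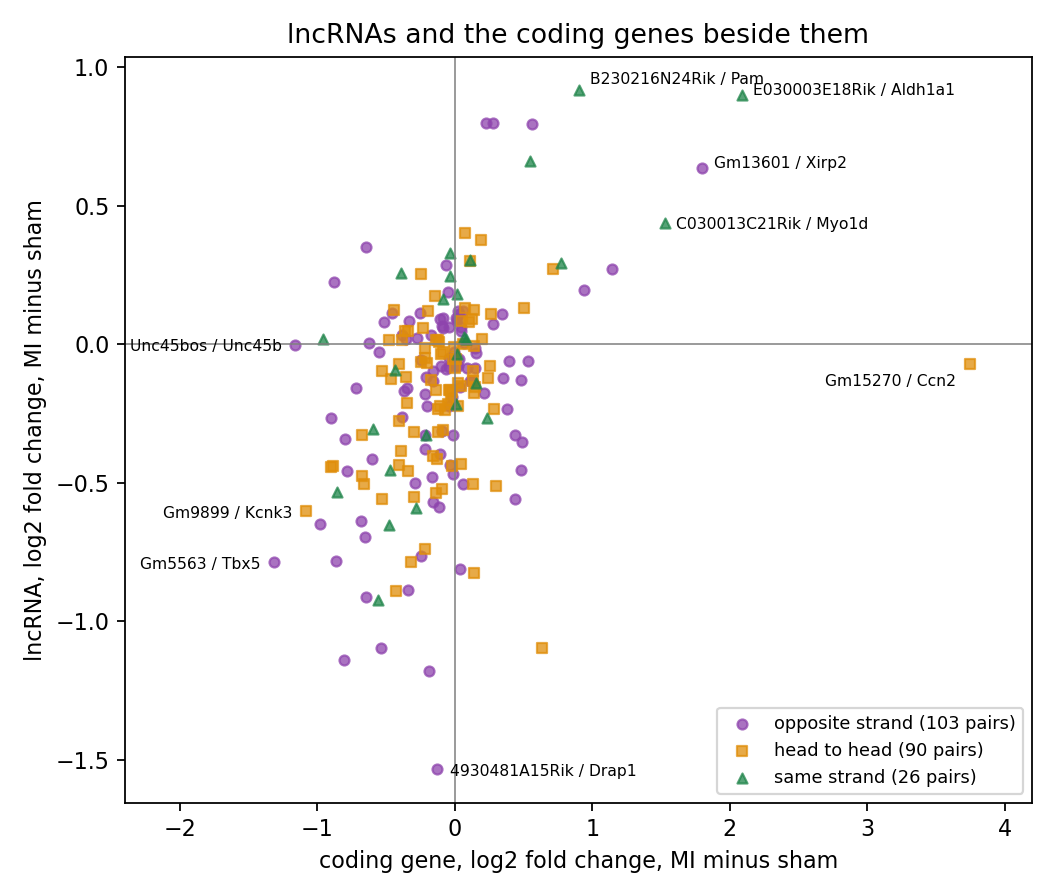
Log2 fold change, MI minus sham, of the coding gene (horizontal) against that of its lncRNA (vertical), for opposite-strand (103, circles), head-to-head (90, squares) and same-strand pairs (26, triangles), without the 4 pairs of unknown strand. Same-strand pairs lie nearest to a common slope. In Gm15270 with Ccn2 and Unc45bos with Unc45b only the coding gene was called, and the lncRNA signal lay within the range of the highest background controls.

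The 8 pairs called on both sides were followed by array, and those outside the rule for named genes were chosen after their values were seen. Gm5563 read 6.09, 6.15 and 6.13 in MI, against 6.66, 6.99 and 7.09 in sham. Tbx5, a transcription factor of heart development on the opposite strand, read 8.30, 7.73 and 7.89 in MI, against 9.14, 9.45 and 9.29 in sham. Both sets of groups were fully apart, with log2 fold changes of -0.79 for Gm5563 and -1.32 for Tbx5 (limma adjusted p = 0.0279 and 0.0196). The other opposite-strand pairs called lower were Gm32352 (-0.78) with the secreted protein gene Wfdc1 (-0.86), Gm16793 (-0.70) with Mfhas1 (-0.65) and B230110C06Rik (-0.65) with Lrrc3b (-0.98), all given as log2 fold changes.

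The pairs called higher in MI had larger changes in the coding gene in 2 of 4 cases. Xirp2, an actin-binding protein gene of the intercalated disc, read 15.64, 15.40 and 15.22 in MI, against 13.78, 13.56 and 13.52 in sham. Its log2 fold change of 1.80 stood beside 0.64 for Gm13601 on the opposite strand. Aldh1a1, a retinaldehyde dehydrogenase gene, had a log2 fold change of 2.09 beside 0.90 for E030003E18Rik on the same strand. Pam, the gene of an enzyme that amidates neuropeptides and peptide hormones, had 0.90 beside 0.92 for B230216N24Rik on the same strand, and Hectd2 had 0.56 beside 0.80 for Hectd2os. Whether probes of the same-strand lncRNAs also match the coding transcript was not tested.

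Pairs in which the coding gene was called and the lncRNA was not were also chosen after their values were seen. Ccn2, a matricellular gene of fibrosis, read 12.88, 13.10 and 11.02 in MI, against 8.48, 8.50 and 8.78 in sham, a log2 fold change of 3.75. Gm15270, which starts head to head with it, had a log2 fold change of -0.07 (SE 0.088) at a mean signal of 5.45, within the range of the highest background controls. Unc45b, a chaperone gene of myosin, had a log2 fold change of -1.16 beside 0.00 (SE 0.0905) for Unc45bos on the opposite strand. Perm1, a muscle regulator of mitochondrial genes, had -0.96 beside 0.02 for AW011738, and Cacnb2, a subunit gene of the L-type calcium channel, had -0.87 beside 0.22 for Gm13269. The mean signals of Unc45bos (5.84) and Gm13269 (5.13) also lay within the range of the highest background controls. Whether Gm15270, Unc45bos and Gm13269 stayed unchanged cannot be told at such signals. In further pairs the lncRNA had the same sign without a call. Gata6os had a log2 fold change of -0.64 (limma adjusted p = 0.0657) beside -0.72 for Gata6, a cardiac transcription factor gene, and Gm9899 had -0.60 beside -1.08 for Kcnk3, a background potassium channel gene.

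Conversely, the lncRNA with the lowest fold change stood alone. Drap1, a transcriptional corepressor gene on the opposite strand of 4930481A15Rik, read 7.66, 7.48 and 7.71 in MI, against 7.80, 7.66 and 7.78 in sham. Its groups overlapped and its log2 fold change was -0.13 (SE 0.102), against -1.53 for the lncRNA. The neighbour of Gm19522, the zinc finger repressor gene Zbtb20, had no tested probe set of its own, and Gm28979 had no coding neighbour by these criteria.

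**Figure D5:**
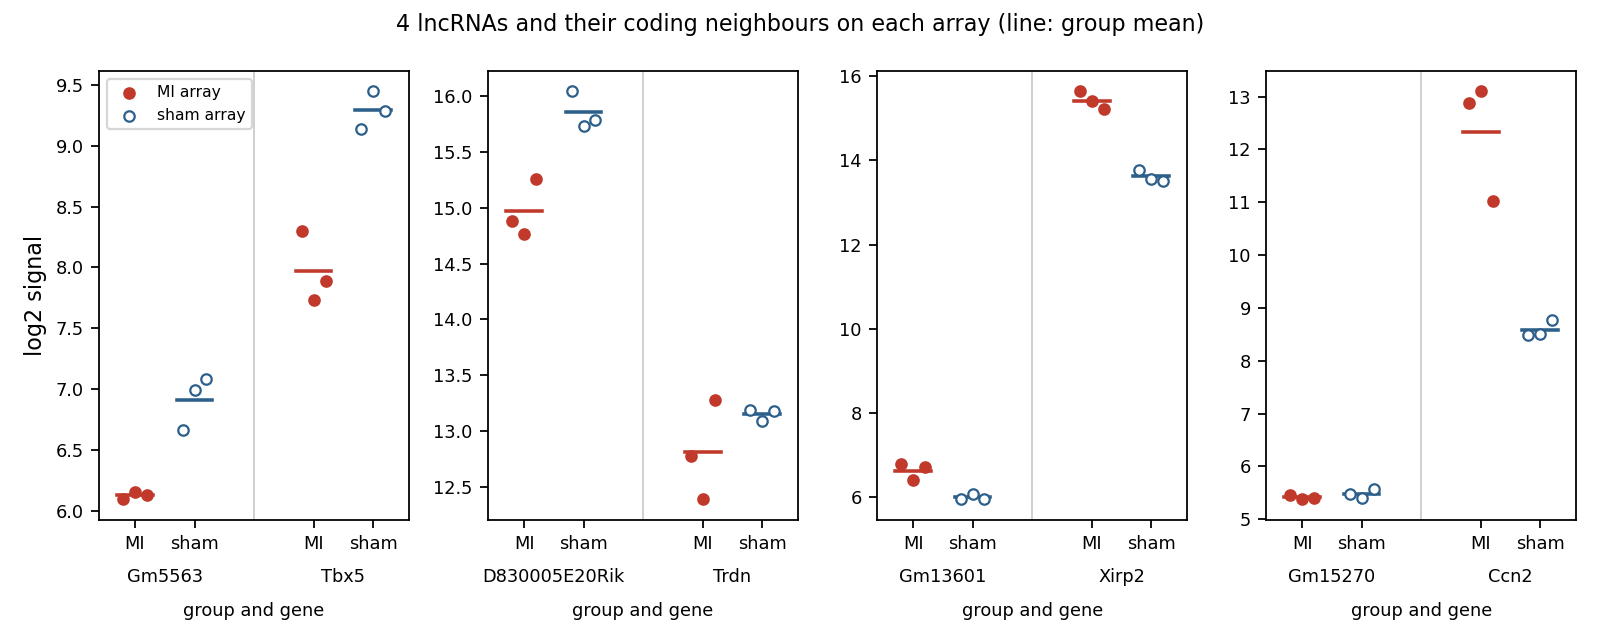
Log2 signal of 4 lncRNAs and their coding neighbours on each array (MI filled red, sham open blue, line at the group mean), each panel with its own vertical scale. Gm5563 and Tbx5 were both lower in MI and Gm13601 and Xirp2 both higher, while D830005E20Rik was lower with overlapping Trdn values and Ccn2 was higher with overlapping Gm15270 values.

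The lncRNAs with an assigned role were examined as lists. The lists of small RNA hosts, imprinted and X-inactivation lncRNAs, broadly expressed regulators and lncRNAs of heart, muscle and fibrosis had 38 lncRNAs on the array, of which 20 met the signal limit. None of the 20 was called by limma, and their median log2 fold change was 0.02, against -0.05 over all lncRNA probe sets. Of all 417 probe sets 7.43% were called, and of all probe sets tested 2.97% were called higher and 3.64% lower. An unadjusted p under 0.05 in limma was reached by 7 of the 20, by 111 of the 417 and by 8150 of all 32979 tested. The well-known lncRNAs left out by name, of which 2 of 5 were called, are not among the 20.

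Among the hosts of small nucleolar RNAs, Snhg18 had the highest log2 fold change, 0.40 (limma adjusted p = 0.0864), with 5.96, 5.86 and 5.86 in MI, against 5.38, 5.68 and 5.42 in sham. Its groups did not overlap. Snhg15 had 0.14, Snhg5 0.11 and Snhg6 0.06, and Snhg14, the long transcript of the imprinted Prader-Willi region, had -0.40 with overlapping groups. Among the microRNA hosts, Mir100hg read 5.84, 6.09 and 5.62 in MI, against 5.12, 5.31 and 5.31 in sham. Its MI values were all above sham, with a log2 fold change of 0.61 and a limma adjusted p of 0.0609. Mir99ahg had 0.29, Lncpint, which is induced by p53, 0.17 on all arrays but -0.12 without sham 3, and Carmn, a lncRNA of smooth muscle and cardiac precursors, -0.28.

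Of the imprinted and X-linked lncRNAs, Peg13 read 6.26, 6.65 and 6.61 in MI, against 7.23, 7.03 and 7.03 in sham. All MI values lay below sham, with a log2 fold change of -0.59 and a limma adjusted p of 0.0583. Airn, which silences the paternal Igf2r allele, had a log2 fold change of -0.08 and Ftx, an activator of Xist, 0.02. The broadly expressed regulators differed little. Norad, which sequesters Pumilio proteins, averaged 11.92 ± 0.13 in MI and 11.94 ± 0.08 in sham (SD, n = 3 each), with a log2 fold change of -0.02 (SE 0.105). Tug1 had 0.02 (SE 0.0825), Oip5os1 -0.12 and Morrbid, a regulator of myeloid cell survival, 0.22.

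Of the heart and fibrosis lncRNAs, Gm12295 had the largest difference, with 9.42, 8.58 and 8.19 in MI, against 7.72, 7.54 and 7.51 in sham. The MI values were all higher but far apart, and the log2 fold change of 1.14 (SE 0.308) had a limma adjusted p of 0.0824. Hand2os1, transcribed beside the cardiac transcription factor gene Hand2, read 9.59, 9.36 and 10.06 in MI, against 10.42, 10.22 and 9.97 in sham. Its groups overlapped, with a log2 fold change of -0.54 and a limma adjusted p of 0.189. Bvht, known for cardiac lineage commitment in mouse stem cells, had a log2 fold change of 0.00 at a signal within the background range.

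The 8 lncRNAs with the highest signals were Gm25640 (19.2), Gm24576 (16.6), Gm24105 (15.6), D830005E20Rik (15.4), Gm14403 (15.0), Bc1 (14.6), Gm26232 (14.1) and Oip5os1 (13.6), as mean log2 signals. Of these D830005E20Rik was called. Gm25640 and Gm24576 also had means above 16. Their log2 fold changes were 0.02 and 0.06 as deposited and -0.25 and -0.29 after quantile normalization, so that the sign turned with the scaling.

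In 4 of the 5 lncRNAs with a log2 fold change of 1 or more, all without a call, MI 3 had the highest value, while in Gm12295 it had the lowest of the MI values. Gm26232 read 14.32, 12.69 and 18.22 in MI, against 14.93, 12.62 and 12.09 in sham, so that MI 3 exceeded the average of MI 1 and MI 2 by 4.72 and the groups overlapped. Its log2 fold change of 1.86 had an SE of 1.5 and a limma adjusted p of 0.488, and was 0.29 without MI 3. Bc1, a translational repressor known from neurons, read 14.80, 14.37 and 17.02 in MI, against 14.21, 13.81 and 13.42 in sham, with MI 3 at 2.43 above the other MI arrays (log2 fold change 1.58, limma adjusted p = 0.226). Without MI 3 it was 0.77. Its other probe sets, whose identifiers name chromosomes 10 and X rather than chromosome 7, gave 0.46 and 0.47 on all arrays and 0.17 and 0.26 without MI 3. All 3 Bc1 probe sets had higher values on every MI array than on every sham array. Gm24463, named after its values were seen, read 11.31, 11.27 and 14.86 in MI, against 11.38, 11.10 and 11.24 in sham. Gm25404, likewise named after its values were seen, read 6.48, 6.50 and 7.84 in MI, against 6.23, 5.24 and 5.58 in sham (log2 fold change 1.26, limma adjusted p = 0.146).

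In MI 3, 12 lncRNA probe sets exceeded the average of MI 1 and MI 2 by more than 1, while the median over all 417 was 0.09 above it. The same median was 2.35 for small nuclear RNA probe sets and 0.89 for small nucleolar RNA probe sets. The sham 1 array stood above the average of sham 2 and sham 3 by a median of 1.21 and 0.24 in these classes and of 0.01 over the lncRNA probe sets, and the deviations of MI 3 and sham 1 from their group means correlated at 0.50. The part of these RNAs in the lncRNA values was not tested. A further 5 lncRNAs had a log2 fold change of -1 or less without being called, among them Gm13479 with -1.19 and 4732440D04Rik with -1.18, named after their values were seen. In Gm13479 the MI values were 5.34, 4.85 and 5.99, against 6.79, 6.54 and 6.42 in sham, all lower in MI and spread over more than 1 (limma adjusted p = 0.0662).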

How the data were processed

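Mouse transcriptome arrays 1.0 of 3 MI and 3 sham samples were used. The authors deposited log2 signals, made with RMA and SKETCH normalization in Affymetrix Expression Console, which were used as deposited. The table held 0 columns of other samples. Precision is limited by the number of arrays. Symbols and gene classes came from RefSeq GRCm38.p6, matched through gene identifier (285 probe sets), symbol (125) or synonym (7), and no source read here gives the build behind the array annotation. Strand came from the RefSeq promoters or, where absent, from the order of the array identifiers, which gave the same strand for 98.5% of 18135 probe sets.

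MI and sham were compared by two-sided moderated tests in limma 3.58.1 (lmFit, eBayes, R 4.3.3) on 32979 probe sets with a mean at or above the 50th percentile (4.36), with Benjamini-Hochberg adjustment. The code was tested on simulated data. The alternatives were other filters, the methods' t-test, trend and robust options, array weights, centring, quantile normalization, a replicate block and leaving out each array. The lncRNAs, the lists and the rules were chosen with earlier results of these data known. The rule named up to 12 called lncRNAs each way with non-overlapping groups, the 8 highest signals, up to 5 lncRNAs per list, up to 6 neighbour pairs, lncRNAs with differing probe sets and those at the limit of 5. Figures were made with Python 3.11.15 and matplotlib 3.10.9.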

Additional observations from a re-analysis of the deposited data

How the results depend on the processing

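The 6 lncRNA probe sets called higher and 25 called lower became 2 and 13 with no filter, where more probe sets were tested, 1 and 0 by the methods' t-test, 50 and 108 with array weights, 3 and 33 with centred arrays, and 3 and 28 with quantile normalization. The replicate block gave 0 and 0, with 7078 probe sets, 97 of them lncRNA probe sets, at an unadjusted p under 0.05 in limma. Calls over all probe sets in each fit moved too, to 1581 with no filter and 272 by the methods' t-test. They were 10760 with array weights, 2405 with centred arrays, 2262 with quantile normalization and 0 with the replicate block. The methods' t-test had 103 lncRNA probe sets at an unadjusted p under 0.05. Whether the replicate numbers pair the samples is not stated. Deviations of arrays of the same number correlated at -0.29, 0.35 and -0.37, which cannot decide it with 3 arrays per group. Leaving out 1 array gave 0 to 16 higher and 0 to 59 lower, with 76 to 146 lncRNA probe sets at an unadjusted p under 0.05 in limma. Calls over all probe sets tested ran between 0 and 4687 in these fits. Of the 31 calls, 15 were kept with no filter, 29 with trend and robust options, 31 with array weights, 28 with centred arrays and 27 with quantile normalization, and the filter at the 75th percentile kept all 19 that it tested. The median log2 fold change was -0.20 over lncRNA probe sets with a mean of at least 6. No called lncRNA changed sign under any of these settings, which their non-overlapping groups fixed in advance wherever the deposited values were kept. Of the 31 named probe sets that were not called, 11 changed sign under at least 1 setting. Among them were Gm25640 and Gm24576, at -0.25 and -0.29 with quantile normalization, and Lncpint. The cause of these changes was not tested.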
